A study of Mus musculus with 6 samples.

Results

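The genes described here are the endoplasmic reticulum (ER) stress sensor Ire1α (gene symbol Ern1), its mRNA substrate Xbp1, and the readouts and sister sensors closest to them, in mouse tongue epithelium. The 10 genes were chosen by name, out of 55421 genes measured. They are the paired sensors Ern1 and Ern2, the substrate Xbp1, the XBP1-dependent genes Dnajb9, Sec61b and Edem1, the decay substrate Bloc1s1, the adaptor Traf2, and the sensors of the other 2 branches, Atf6 and Eif2ak3. All 10 had a row in the table, and 8 had enough reads to be tested.

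The 6 libraries were made, 1 per mouse, with a kit that reads the 3' end of each mRNA (QuantSeq). The KO group (n = 3 mice) carried floxed Ire1α alleles, labelled IRE1 F/F, together with K14CreERT2, a tamoxifen-activated Cre driven by the keratin 14 promoter. Their WT littermates (n = 3 mice) had the floxed alleles (IRE1F/F) with no Cre. Every mouse in both groups received tamoxifen by intraperitoneal injection once a day for 4 days and was harvested on day 5, and the mucosa was peeled off after 10 minutes in neutral protease and collagenase at 37 °C. The labels give no ages, and none of the 6 mice carried Cre without floxed alleles. The keratin 14 promoter is used by basal keratinocytes. Floxed alleles stay in peeled cells that did not use it while Cre was active and do not descend from cells that did. Keratinocytes that had left the basal layer before the injections would be among them.

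The unfolded protein response adjusts the ER to the load of protein it has to fold, and it has 3 sensors in the ER membrane. Activated Ire1α is an RNase that cuts a short segment out of the Xbp1 mRNA. The ends are rejoined by the tRNA ligase RTCB, and the new reading frame encodes the transcription factor XBP1s, which raises genes for ER import, folding and degradation. Ire1α can also cut other mRNAs near the ER, a process called regulated Ire1-dependent decay (RIDD), and can bind the adaptor TRAF2 to signal to the kinase JNK. PERK (Eif2ak3) slows translation by phosphorylating eIF2α, and ATF6 is moved to the Golgi, cleaved and sent to the nucleus.

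The segment that Ire1α removes is shown because it sets what these libraries can and cannot read. In the GENCODE M21 transcript Xbp1-201, which has 2129 bases, the letters CNGCNG, with a cut after the third letter, were searched for on the sense strand as pairs of cuts at most 60 bases apart in the coding part. Of 33 such pairs, overlapping ones included, removal of the segment between the cuts lengthens the reading frame for 4. The longest frame, 371 codons against 267 codons unspliced, comes from the pair 26 bases apart, which is the segment known to be removed. It lies at chr11:5524279-5524304 (GRCm38, plus strand), inside the coding part of 1 exon. In the first line below the capitals mark the 26 removed bases, and in the second they mark what follows the junction.
Xbp1 unspliced: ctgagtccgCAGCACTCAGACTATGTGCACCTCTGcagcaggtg
Xbp1 joined: ctgagtccgCAGCAGGTG
The segment ends 1289 bases before the 3' end of the transcript, and the last exon is 1209 bases long. The deposited values are counts per gene, so they give total Xbp1 mRNA and do not separate the 2 forms.

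Libraries held 4606309 to 6286153 reads. A value is a read count divided by the library's size factor, and 1 read was worth 0.862 to 1.31 units, and counting error alone leaves room for 3 reads (2.59 to 3.92 units) where a gene is at 0. The keratinocyte label was checked against 9 keratinocyte markers, and all 9 were above 0 in every library. The basal markers among them did not all go 1 way. Krt14 was at 23878 to 40922 in KO and 13185 to 15244 in WT, and Krt5 at 7304 to 14131 in KO and 3726 to 6465 in WT. Krt15 was at 1183 to 3803 in KO and 4815 to 6177 in WT, and Trp63 at 394 to 531 in KO and 599 to 791 in WT. The part of these shifts in the results below was not tested. Summed markers of fibroblasts were 213 to 1073 in KO libraries and 1362 to 1877 in WT libraries, of which the proteoglycan gene Dcn alone made 195 to 544 in KO and 1329 to 1856 in WT. The other 5 fibroblast markers summed to 543, 18.1 and 29.5 in KO replicates 1 to 3 and 39.6, 33.2 and 20.9 in WT replicates 1 to 3, so the groups overlapped and KO replicate 1 was the highest. Those of endothelium were 36.2 to 59.6 in KO and 17.0 to 29.2 in WT. Skeletal muscle markers summed to 1743 in KO replicate 1, 75.0 and 307 in the other KO libraries, and 86.7 to 235 in WT. In these bulk samples fewer cells of a type and less RNA per cell cannot be told apart.

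None of the 8 tested genes passed the test between KO and WT (limma on log2(value + 1), Benjamini-Hochberg threshold 0.05 over 10987 genes), where 1.8% of all tested genes passed in either direction (1.22% higher in KO and 0.583% lower in KO). Only Sec61b of the 8 had an unadjusted p under 0.05, as did 13.5% of all tested genes. With edgeR on the recovered reads 0 of the 8 passed (1.73% of all genes), and with DESeq2 1 did, Sec61b (3.35% of all genes). The authors' deposited table held 341 called genes, out of 55421 measured, and contained 0 of the 10. Ern2 and Bloc1s1, with 1 and 2 reads in all, are among the 10. How many genes the authors tested is not known here, so no share of tested genes can be set beside this count. In each of the 8 the KO and WT values overlapped, while 19.1% of all tested genes had groups that did not. The interval of each difference, given below, shows how large a change remained possible.

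**Figure D1:**
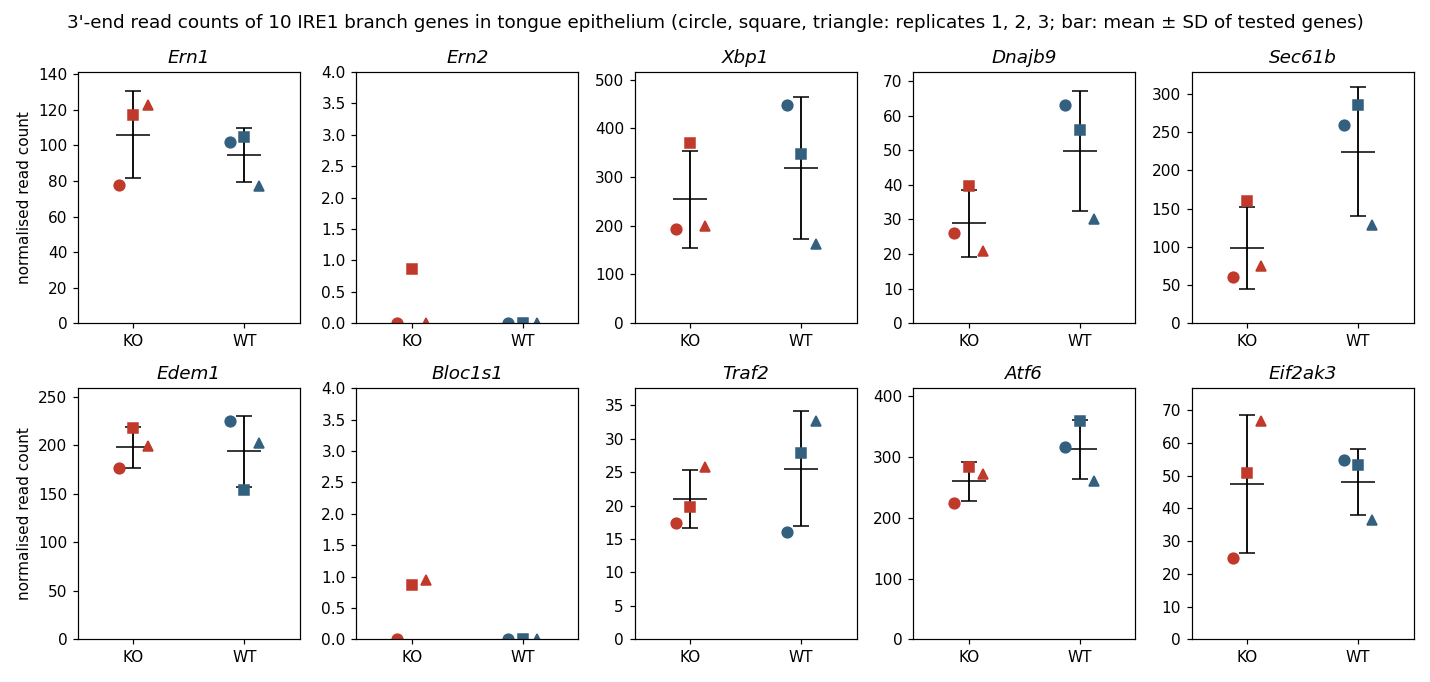
Normalised read counts (vertical axes, linear from 0, each gene on its own scale) of the 10 genes in KO and WT libraries; circles, squares and triangles are replicates 1, 2 and 3, and bars show the mean ± SD of tested genes (n = 3 mice per group). The KO and WT points overlap in every tested gene, and Ern2 and Bloc1s1 are at 0 to 0.953 in all 6 libraries.

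Ern1 encodes Ire1α itself and spans chr11:106394650-106487852 (GRCm38, minus strand, GENCODE M21). Its values were 78.0, 117 and 123 in KO replicates 1 to 3 and 102, 105 and 77.1 in WT replicates 1 to 3. KO replicates 2 and 3 were the highest of the 6 libraries and KO replicate 1 lay beside WT replicate 3 at the bottom. The level averaged 106 ± 24.5 in KO and 94.5 ± 15.2 in WT (SD, n = 3 each), a log2 fold change of 0.15 ± 0.24 (SE; limma adjusted p = 0.847). The 95% interval of this difference, -0.37 to 0.67, corresponds to a KO to WT ratio between 0.771 and 1.60. Total 3' reads of Ern1 were thus not detectably lower in the libraries labelled KO. Transcript Ern1-201 has 22 exons, and the last one, 4105 of its 6946 bases, is where tags beside the poly(A) tail of that transcript fall. The labels do not say which exons are floxed, and these tags cannot check the genotype if they come from outside the deleted exons. The share of RNA from cells that kept the floxed alleles was not measured, and its part in the Ern1 values was not tested.

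Ern2 encodes Ire1β, the form of the sensor found in mucus-secreting epithelia. It gave 0, 0.862 and 0 in KO replicates 1 to 3 and 0 in each WT library, which is 1 read in all, and it was not tested. No expression of the second Ire1 gene was therefore detectable at this depth in either genotype. Summed markers of goblet cells were 30.2 to 49.6 in KO and 27.1 to 48.3 in WT, mostly Spdef and Fcgbp. The gel-forming mucin Muc2 did not exceed 3.25 in any library.

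Xbp1 had 194, 369 and 199 in KO replicates 1 to 3 and 449, 346 and 162 in WT replicates 1 to 3. The highest values were in WT replicate 1, KO replicate 2 and WT replicate 2, and the lowest was in WT replicate 3, so its order did not follow genotype. Mean levels were 254 ± 99.5 in KO and 319 ± 145 in WT (SD, n = 3 each), with a log2 fold change of -0.27 ± 0.36 (SE; limma adjusted p = 0.813). The 95% interval allows KO to WT ratios from 0.474 to 1.44. Without WT replicate 1 the log2 fold change was 0.03 (limma adjusted p = 0.991), and without WT replicate 3 it was -0.70 (limma adjusted p = 0.267). Xbp1 was covered by 124 to 476 reads per library. Secretory cells, which are rich in XBP1, were looked for by their markers. Of 11 salivary gland markers 6 were above 0 in any library, and their sum was 6.50, 10.3 and 57.2 in KO replicates 1 to 3 and 53.7, 6.11 and 6.53 in WT replicates 1 to 3. Muc5b alone made 48.6 in KO replicate 3 and 48.1 in WT replicate 1, and at most 3.92 elsewhere. The 5 plasma cell markers summed to 7.58 to 11.4 in KO and 3.92 to 8.48 in WT, and Mzb1 and Igkc were at 0 throughout. The part of secretory cells in the Xbp1 values was not tested.

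The library names have 2 styles, a number or a letter, whose meaning the labels do not give. WT replicates 1 and 2 and KO replicate 1 have numbers, and the others have letters. Among the numbered libraries the mean log2 value of Xbp1 was 1.02 lower in KO (1 library) than in WT (2 libraries), and among the lettered ones it was 0.74 higher in KO (2 libraries) than in WT (1 library). Ern1 also differed in sign between the styles, with KO minus WT differences of -0.40 (numbered) and 0.63 (lettered). So did Eif2ak3, with -1.08 and 0.66, Atf6, with -0.59 and 0.09, and Edem1, with -0.07 and 0.04. The sign was the same in both styles for Sec61b (-2.15 and -0.23), Dnajb9 (-1.16 and -0.05) and Traf2 (-0.28 and -0.51). With the style as a covariate 0 of the 8 genes passed, where 82 of all 10987 genes did (limma), and the difference between the styles was not tested.

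The library profile of Xbp1 was shared with several other genes. Its 3 highest libraries, KO replicate 2 and WT replicates 1 and 2, were also the 3 highest for Dnajb9, Sec61b and Atf6, and for 12.1% of all tested genes. Of the 20 sets of 3 libraries only the opposite set, KO replicates 1 and 3 and WT replicate 3, was more frequent (12.3%). The 3 KO libraries were highest in 9.84% of tested genes and the 3 WT libraries in 9.25%, so the sharing was not particular to these genes. For Ern1 the 3 highest were KO replicates 2 and 3 and WT replicate 2, as in 3.21% of tested genes. Likeness was then measured as the root mean square difference between 2 genes' log2 values over the 6 libraries, each centred on its own mean, among 6854 other genes with a symbol and a mean of at least 50. The genes nearest to Xbp1 were Rab28, a small GTPase, Lta4h, an enzyme of leukotriene synthesis, Foxk1, a forkhead factor, Tsc22d4, and Llgl2, a cell polarity gene. Their differences from Xbp1 were 0.08 to 0.12 log2 units, where Xbp1's own spread around its mean was 0.55. Rab28 had 54.2, 109 and 64.8 in KO replicates 1 to 3 and 139, 110 and 52.2 in WT replicates 1 to 3. Nearest to Ern1, with differences of 0.05 to 0.09 log2 units, were Mtm1, a phosphoinositide phosphatase, Wars2, a mitochondrial tRNA synthetase, Arhgef11, Lrch1, and the kinase gene Sik3. Of the other tested genes among the 8, Dnajb9 lay 0.29 log2 units from Xbp1, Atf6 0.42, Ern1 0.47, Eif2ak3 0.52, Sec61b 0.52, Edem1 0.55 and Traf2 0.79. By this measure the XBP1-dependent genes were not as a group the nearest. The measure counts the size of a gene's swings as well as their shape. Sec61b's own spread was 0.83 log2 units against 0.55 for Xbp1, so its distance does not show an unlike shape.

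**Figure D2:**
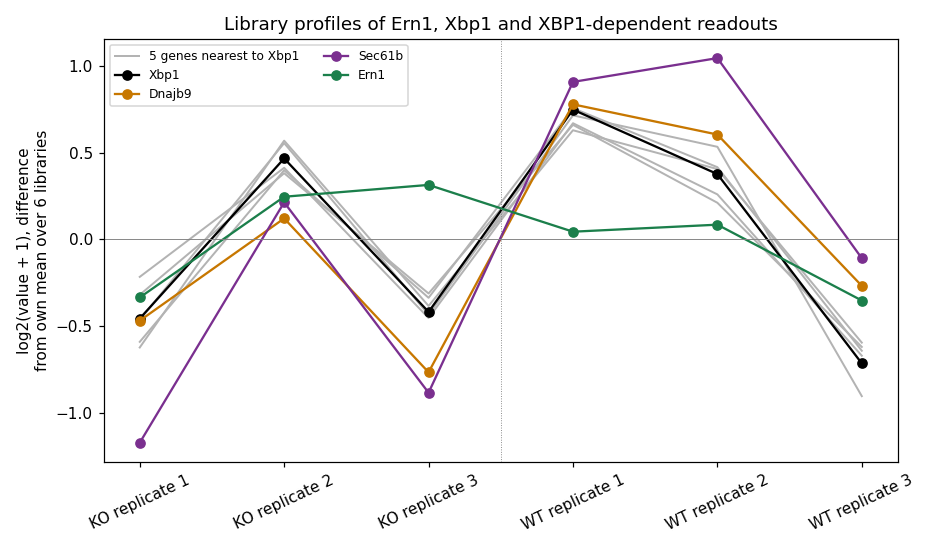
Difference of log2(value + 1) from each gene's own mean over 6 libraries (vertical axis) by library (horizontal axis) for Ern1, Xbp1, Dnajb9, Sec61b and, in grey, the 5 genes nearest to Xbp1. Xbp1, Dnajb9 and Sec61b are highest in KO replicate 2 and WT replicates 1 and 2, and Ern1 is highest in KO replicates 2 and 3.

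Sec61b encodes the β subunit of the SEC61 channel through which new proteins enter the ER, and XBP1s is known to raise it. Its values were 60.7, 160 and 74.3 in KO replicates 1 to 3 and 260, 286 and 128 in WT replicates 1 to 3. The groups overlapped only because KO replicate 2 exceeded WT replicate 3. The mean was 98.4 ± 54.0 in KO and 225 ± 84.8 in WT (SD, n = 3 each), a KO to WT ratio of 0.438. The log2 fold change was -1.23 ± 0.38 (SE) with a 95% interval of -2.08 to -0.38, an unadjusted p of 0.00865 and a limma adjusted p of 0.164. By p it ranked 577th of the 10987 genes. DESeq2 gave a log2 fold change of -1.19 and called it (adjusted p = 0.0400), while edgeR gave -1.19 and did not (adjusted p = 0.181). Without KO replicate 2 it passed limma at -1.64 (adjusted p = 0.0440), and a limma fit with a weight per library also called it at -1.59 (adjusted p = 0.0110). Over the whole table these fits called 112 and 590 genes, against 198 in the main fit. It did not pass when any other single library was left out (limma adjusted p = 0.0642 to 0.456). Nor did it pass with the name style as a covariate (limma adjusted p = 0.287). It was lower in KO under all 17 alternative settings, from -1.64 to -0.95. Of the fibroblast markers Dcn was also lower in KO, with its lowest value (195) in KO replicate 2, the KO library with the most Sec61b, while the summed level of the other 5 overlapped between the groups. Their part in the difference was not tested.

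Dnajb9 (ERdj4), a J-domain partner of the chaperone BiP and a classic XBP1s target, had 26.00, 39.6 and 20.97 in KO replicates 1 to 3 and 63.1, 55.8 and 30.0 in WT replicates 1 to 3. KO replicate 2 exceeded WT replicate 3, as for Sec61b. Means were 28.9 ± 9.66 in KO and 49.7 ± 17.4 in WT (SD, n = 3 each). The log2 fold change of -0.74 ± 0.35 (SE) did not pass (limma adjusted p = 0.388), and its 95% interval ran from -1.51 to 0.02. With a weight per library it passed at -1.12 (limma adjusted p = 0.0478). The values rest on 22 to 67 reads per library.

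Edem1, a lectin-like protein that directs misfolded glycoproteins to degradation, had 177, 218 and 199 in KO replicates 1 to 3 and 225, 154 and 202 in WT replicates 1 to 3. Every KO value lay within the WT range. The log2 fold change was 0.04 ± 0.20 (SE; limma adjusted p = 0.952), and the 95% interval limits the KO to WT ratio to between 0.760 and 1.40. It was -0.03 without KO replicate 2 and -0.11 without WT replicate 2. Estimates for the 3 XBP1-dependent genes thus ran from -1.23 for Sec61b to 0.04 for Edem1, and the differences between genes were not tested.

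**Figure D3:**
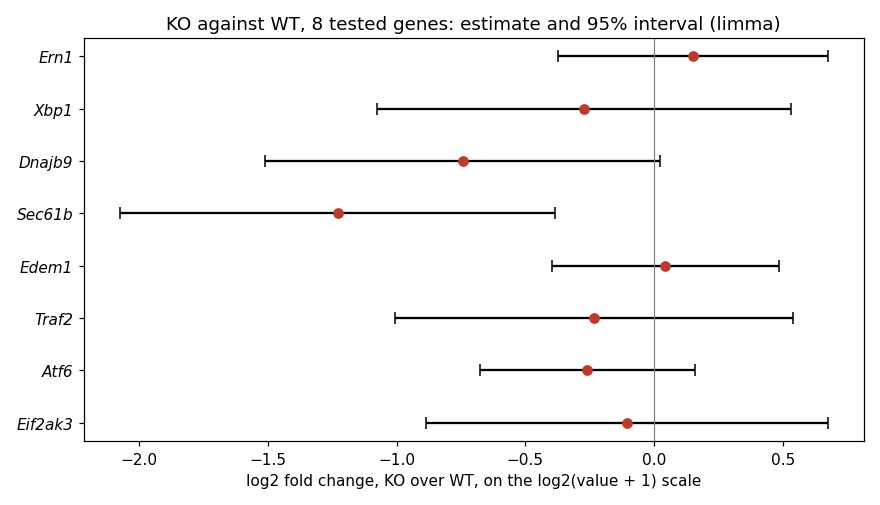
Log2 fold change of KO over WT (horizontal axis, log2(value + 1) scale) for the 8 tested genes, with points for the limma estimate and bars for its 95% interval (n = 3 mice per group). The interval excludes 0 for Sec61b (-2.08 to -0.38), whose adjusted p of 0.164 missed the threshold, and includes 0 for the other 7.

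Bloc1s1, a lysosome biogenesis subunit, is the standard transcript on which Ire1-dependent decay is read. It could not serve here, since it had 0, 0.862 and 0.953 in KO replicates 1 to 3 and 0 in each WT library, which is 2 reads in all. The gene lies at chr10:128917882-128924035 (GRCm38, minus strand). In GENCODE M21, 366 of the last 500 exonic bases of transcript Bloc1s1-201 (73.2%) are also exonic bases of Rdh5. Rdh5 is a retinol dehydrogenase gene on the same strand. The other 9 genes shared 0 such bases with genes on their own strand, and overlaps with genes on the opposite strand were not counted. By default featureCounts, named in the submitters' processing notes, leaves out reads that fall on exons of more than 1 gene. The setting used is not given, and its part in these zeros was not tested. The 6 letters CTGCAG, which also stand at the second cut of Xbp1, occur 4 times in the 550 bases of this transcript. The last match is shown, with those letters in capitals, because it ends 98 bases before the 3' end and lies wholly in an Rdh5 exon. It is at chr10:128920012-128920017 and in the coding part.
Bloc1s1 last match: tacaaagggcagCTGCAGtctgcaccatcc
A match in letters is a description and not evidence of cleavage.

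Traf2, the adaptor that links Ire1α to JNK, had 17.3, 19.8 and 25.7 in KO replicates 1 to 3 and 16.0, 27.9 and 32.6 in WT replicates 1 to 3. The KO values lay inside the WT range. Its log2 fold change was -0.23 ± 0.35 (SE; limma adjusted p = 0.836), with a 95% interval of -1.01 to 0.54. With 16 to 32 reads per library it was the least covered of the tested genes.

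Atf6 had 224, 284 and 272 in KO replicates 1 to 3 and 317, 360 and 261 in WT replicates 1 to 3. WT replicates 1 and 2 were above all KO libraries and WT replicate 3 was below KO replicates 2 and 3. Means were 260.1 ± 31.7 in KO and 312 ± 49.3 in WT (SD, n = 3 each), a log2 fold change of -0.26 ± 0.19 (SE; limma adjusted p = 0.616). Its 95% interval, -0.68 to 0.16, bounds the KO to WT ratio between 0.626 and 1.12.

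Eif2ak3, which encodes PERK, had 24.9, 50.8 and 66.7 in KO replicates 1 to 3 and 54.7, 53.2 and 36.6 in WT replicates 1 to 3. KO replicate 1 was the lowest and KO replicate 3 the highest of all 6, so the KO group spanned the WT group. The values rest on 23 to 70 reads per library. The log2 fold change of -0.11 ± 0.35 (SE) did not pass (limma adjusted p = 0.935), and was 0.29 without KO replicate 1 (limma adjusted p = 0.855). The muscle markers were also at their highest in KO replicate 1 (1743), and their part in this value was not tested.

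Beyond the 10 genes, lists of the pathway's other parts were read from the same fit. They hold 93 different genes, of which 82 were tested, and 0 passed limma in either direction, beside 1.8% of all genes tested. At an unadjusted p under 0.05 there were 9 of the 82, beside 13.5% of all genes. With edgeR 0 passed (1.73% of all genes), and with DESeq2 2 did (3.35% of all genes), Sec61b and Serp1, both lower in KO. These counts are near or below the shares over all genes. In the list of XBP1 target genes 25 of 36 tested genes had a log2 fold change below 0, with a median of -0.13, beside 50.9% and a median of -0.01 over all genes tested. The KO libraries all lay below the WT libraries in 4 of the 36, namely Serp1, Srp9, Spcs1 and Spcs2, where 9.25% of all tested genes did so.

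Serp1 encodes a small protein of the translocation site that protects new membrane proteins under stress. It had 719, 786 and 919 in KO replicates 1 to 3 and 1107, 1168 and 1797 in WT replicates 1 to 3, with a log2 fold change of -0.72 ± 0.21 (SE; limma adjusted p = 0.142, DESeq2 adjusted p = 0.0490). Srp9, part of the signal recognition particle, had 33.6, 56.9 and 25.7 in KO and 63.1, 82.0 and 66.6 in WT (log2 fold change -0.92, limma adjusted p = 0.188). Other genes of ER import in the list were named after their values were seen, and they varied. Log2 fold changes were -0.06 for Sec62, 0.21 for Sec63, 0.03 for Srpr and -0.01 for Srprb. Ssr1 to Ssr4 had 0.12, -0.10, -0.11 and -0.12. Spcs1, Spcs2 and Spcs3 were lower, at -0.41, -0.32 and -0.87 (limma adjusted p = 0.401, 0.430 and 0.431). The other channel subunits were also named after their values were seen. Sec61a1, the pore, had 30.3, 36.2 and 53.4 in KO and 42.4, 47.1 and 49.6 in WT (log2 fold change -0.25, limma adjusted p = 0.765). Sec61g, the γ subunit, had 2.17, 15.5 and 6.67 in KO and 44.3, 20.1 and 2.61 in WT (log2 fold change -1.03, limma adjusted p = 0.680). WT replicate 3 was among its lowest libraries.

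**Figure D4:**
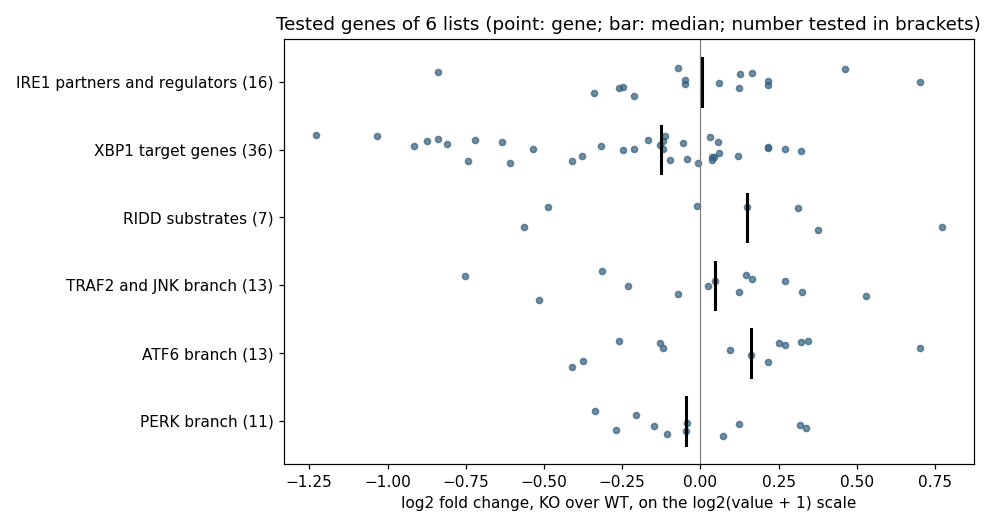
Log2 fold change of KO over WT (horizontal axis, log2(value + 1) scale) of every tested gene in 6 lists, 1 point per gene, with a bar at the list's median and the number tested in brackets. None of these genes passed limma, and the medians run from -0.13 for XBP1 target genes to 0.16 for the ATF6 branch.

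Among 16 tested partners and regulators of Ire1α the median log2 fold change was 0.00, with 8 below 0. Hspa5 encodes BiP, the chaperone that holds Ire1α inactive and is itself induced by ATF6. It had 5762, 5279 and 9847 in KO replicates 1 to 3 and 3701, 4497 and 4174 in WT replicates 1 to 3. Every KO library was above every WT library, as in 4 of the 82 tested list genes and 9.84% of all tested genes. The log2 fold change was 0.70 ± 0.25 (SE), which did not pass (limma adjusted p = 0.230, and 0.0359 with a weight per library). Ddx1, a helicase of the tRNA ligase complex that rejoins Xbp1, had 244, 225 and 207 in KO and 172, 157 and 161 in WT (log2 fold change 0.46, limma adjusted p = 0.250). The ligase gene Rtcb itself had 18.4, 13.8 and 18.1 in KO and 22.6, 11.3 and 20.9 in WT (limma adjusted p = 0.959), and was named after its values were seen.

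Of 13 listed RIDD substrates 7 were tested, with a median log2 fold change of 0.15. Tapbp, the peptide-loading protein tapasin, had 690, 482 and 679 in KO replicates 1 to 3 and 737, 1086 and 778 in WT replicates 1 to 3 (log2 fold change -0.49, limma adjusted p = 0.354). Sparc, a matrix protein, had 338, 99.97 and 111 in KO and 102, 82.0 and 88.8 in WT (log2 fold change 0.77, limma adjusted p = 0.433). The high value was in KO replicate 1, where the muscle markers and the fibroblast gene Col1a1 (190 against 3.45 to 14.3 elsewhere) were also highest, and their part was not tested.

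In the list for TRAF2 and JNK 13 genes were tested, with a median log2 fold change of 0.05. Birc2, the ubiquitin ligase cIAP1 that TRAF2 recruits, had 34.7, 31.0 and 26.7 in KO replicates 1 to 3 and 47.1, 62.8 and 48.3 in WT replicates 1 to 3. Every KO library was below every WT library, as in 9.25% of all tested genes. The log2 fold change of -0.75 did not pass (limma adjusted p = 0.197, and 0.0427 with a weight per library). Ripk1, a kinase of the same receptor complexes, had 86.7, 73.3 and 77.2 in KO and 59.4, 50.6 and 53.5 in WT (log2 fold change 0.53, limma adjusted p = 0.286).

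In the lists of the sister branches 0 genes passed limma, edgeR or DESeq2, and with a weight per library 1 did, Hspa5. The ATF6 list had 13 tested genes and a median log2 fold change of 0.16. Besides Hspa5, its member with the lowest p was Mbtps2, a protease that activates ATF6, with 41.2, 54.3 and 53.4 in KO and 81.1, 65.4 and 53.5 in WT (limma adjusted p = 0.523). The PERK list had 11 tested genes and a median of -0.05. Eif2s1, which encodes eIF2α, had 215, 410.2 and 251 in KO and 401, 332 and 333 in WT (limma adjusted p = 0.606). Asns, asparagine synthetase and a target of ATF4, had 156, 89.6 and 97.2 in KO and 103, 89.0 and 73.1 in WT (limma adjusted p = 0.626).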

How the data were processed

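The authors deposited the normalised read count of every gene and library (a linear signal), per the file headers. They also deposited a table of called genes, whose log2 fold changes, p-values and score (a test statistic) were used only to look up which genes it holds. FastQC, STAR, featureCounts and DESeq2 are named without versions in the submitters' processing notes. Neither the genome build nor the strand setting is stated in the labels or headers. Of the table's 55421 gene IDs, 55154 are in GENCODE M21 (GRCm38), from which coordinates and sequences were taken.

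Every value was a whole multiple of 1 step per library (100% to within 0.01 of a read), so whole reads were recovered. limma 3.58.1 (R 4.3.3) with an intensity trend tested KO against WT on log2(value + 1), for the 10987 genes that reached 10 in 3 or more libraries. Fold changes on this scale understate changes of low genes. Intervals are 95% intervals from the moderated variance. Tests are two-sided, and an exact permutation test of 3 against 3 cannot go below 0.1, so none was used. edgeR 4.0.16 and DESeq2 1.42.0 on the recovered reads called 190 and 368 genes, against 198 by limma. The fit was tested on simulated data first. Other alternatives changed the pseudocount, filter, scaling, weights, covariates and libraries.

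The 10 genes and the lists were chosen with earlier results of these data known. Genes named from a list are those that passed and the 2 others with the smallest p, and the genes nearest to Ern1 and Xbp1 are 5 each. The symbol Ddit3 stands on 2 rows, of which the 1 above 0 was used.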

Additional observations from a re-analysis of the deposited data

How the results depend on the processing

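All 8 tested genes were refitted under up to 17 alternative settings, with Dnajb9 and Traf2 not tested by the filter at 50. Genes called over the whole table numbered 198, against 368 with DESeq2, 590 with a weight per library, 82 with the library name style as a covariate, and 68 to 186 when 1 library was left out (75, 112 and 68 without KO replicates 1, 2 and 3, and 132 and 80 without WT replicates 1 and 2). Of the 10 genes 1 was called with DESeq2 (Sec61b), 2 with a weight per library (Sec61b and Dnajb9), and 0 to 1 when 1 library was left out (Sec61b without KO replicate 2). Of the pathway list genes 2 were called with DESeq2, 6 with a weight per library (Hspa5, Dnajb9, Sec61b, Srp9, Erp44 and Birc2), and 0 to 1 when 1 library was left out. Sec61b, Dnajb9, Traf2, Atf6 and Ern1 kept their direction in each alternative fitted, but Ern1 ran from 0.01 to 0.35 and Traf2 from -0.52 to -0.02, close to 0 at 1 end. Within the name styles, given above, Ern1 and Atf6 differed in sign. Xbp1 ran from -0.70 to 0.033 when 1 library was left out, with the positive value without WT replicate 1. Edem1 was -0.016 with the name style as a covariate and ran from -0.11 to 0.16 when 1 library was left out. Eif2ak3 was 0.11 with a weight per library and ran from -0.40 to 0.29 when 1 library was left out. The cause was not tested. With the replicate number as a block 178 genes were called, and 0 of the 10. Deviations of same-numbered libraries from their group means correlated at -0.25, 0.03 and 0.28. These correlations cannot decide whether the numbers pair the mice, and the labels do not say. Equal totals moved the median log2 fold change of all genes to -0.04. Depth limits Traf2, Dnajb9 and Eif2ak3, with 16 to 70 reads per library, and leaves Ern2 and Bloc1s1 unmeasured.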
